A study of Mus musculus with 8 samples.

Results

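The genes described here are the chemokines and chemokine receptors of mouse CD4+ T cells that lacked Eos, the Ikaros family DNA-binding protein that Ikzf4 encodes. They were taken by symbol: Ccl, Cxcl, Ccr, Cxcr or Ackr followed by a digit, plus Xcl1, Xcr1, Cx3cl1 and Cx3cr1, without pseudogene symbols and with at least 10 counts summed over the 8 libraries. Of 62 genes taken, 41 reached that minimum, 8 had 1 to 9 counts and 13 had none, out of 49040 genes in the deposited table. The 41 genes comprise 22 ligands and 19 receptors. The least counted of them was Ccr9 with 18 counts, and the most counted gene below the minimum was Ccl24 with 8 counts.

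RNA sequencing compared 4 Ikzf4-/- libraries (Eos KO 1 to 4, called knockout here) with 4 wild-type libraries (WT 1 to 4). Both groups carry the strain label C57BL/6J, and the knockout is labelled Ikzf4-/-, with no conditional allele or age named. Both were started from naive CD4+ T cells and held for 72 h on plates coated with antibodies to CD3 and CD28 under Th1-polarising conditions, and no unstimulated or non-polarised cells are analysed here. The labels do not say whether libraries of a group came from separate mice or cultures. With genotype as the only term, the p-values rest on how far the libraries of a group lie apart. Every pair within a group differed beyond sampling noise (chi-square of 14.5 to 137 per degree of freedom). Libraries 3 and 4 were the closest pair in each group, at 14.5 in wild type and 17.3 in knockout. The other pairs were at 69.5 or more in wild type and 48.1 or more in knockout. This statistic grows with depth, and libraries 3 and 4 had the smallest totals of their group.

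Library totals were 25227017 to 53149322 counts in knockout libraries and 25893792 to 43958781 counts in wild-type libraries. Ikzf4 itself was at 2.14, 2.58, 4.88 and 3.63 CPM (counts scaled to the library's size) in knockout libraries 1 to 4, against 41.1, 41.4, 48.1 and 54.9 CPM in wild-type libraries 1 to 4. CD4 T cell identity genes summed to 3661 to 4852 CPM in knockout libraries and 3669 to 4520 CPM in wild-type libraries. Libraries with the same number resembled each other across genotypes: both number 2 libraries had Xist (588 CPM in knockout, 503 CPM in wild type), and no other library exceeded 0.57 CPM. Xist is transcribed from the inactive X chromosome of female cells, so the libraries of a group do not all share 1 source. Each comparison is therefore given from 2 fits of edgeR's quasi-likelihood test. The first has genotype alone. The other also holds the library number as a block, so that knockout and wild-type libraries of the same number are compared with each other. Its p-values rest on how far the knockout to wild-type difference varies from number to number, not on the spread within a group. The blocked fit counts numbers 3 and 4 as separate pairs, and the labels do not say whether they are independent.

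Chemokines are small secreted proteins that direct the movement of leukocytes. They are sorted into CC, CXC, XC and CX3C classes by the spacing of their first conserved cysteines. Their receptors span the membrane several times and signal mainly through inhibitory G proteins, which activate phosphoinositide 3-kinase gamma, phospholipase C beta and the Rac activator DOCK2. Th1 cells are known for CXCR3 and CXCR6 on their surface and for secretion of CCL3, CCL4 and CCL5, whereas CCR7 marks naive and central memory cells that home to lymph nodes.

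In the blocked fit the receptors that changed were all lower in the knockout, and the ligands moved in both directions. The receptors Cxcr6, Ccr2, Cxcr2, Ccr3, Cxcr1 and Cxcr4 fell, as did the ligands Ccl3, Ccl4 and Ccl5, while the ligands Ccl22, Cxcl13 and Cxcl10 rose. The genes for the Th1 receptor CXCR3 and the lymph node homing receptor CCR7 did not pass the test. Changes ran from 4.21-fold lower (Cxcr6) to 3.88-fold higher (Ccl22).

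Of the 41 genes, 28 passed edgeR's filter on low counts (14 ligands and 14 receptors). With genotype as the only term, 0 of 28 passed an adjusted p of 0.05, where 0.157% of the 14672 genes tested did (0.0545% higher and 0.102% lower in the knockout), and 6 of 28 had an unadjusted p under 0.05, where 8.1% of all genes did. The nearest was Cxcr6, with an adjusted p of 0.0632. DESeq2 without the block called Cxcr6 lower and Cxcl13 higher among the 28, plus Ccl6, which is below the edgeR filter, where 1.46% of genes were called (0.396% higher and 1.07% lower). The authors' deposited table likewise has an adjusted p under 0.05 for Cxcr6, Cxcl13 and Ccl6, 3 of the 30 genes described here for which it gives one.

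With the library number as a block, 12 of 28 genes passed, or 42.9%, where 6.71% of all genes tested did. Of these, 9 were lower in the knockout, where 4.01% of all genes were, and 3 were higher, where 2.69% were. Among the 14 ligands 3 rose, 3 fell and 8 did not pass, with a median log2 change of 0.43. Among the 14 receptors 0 rose, 6 fell and 8 did not pass, with a median log2 change of -0.84, where the median of all genes tested was 0.00. By class, 4 of 6 CXC receptors, 2 of 7 CC receptors and 3 of 9 CC ligands fell, while 1 of 9 CC ligands and 2 of 4 CXC ligands rose. The knockout library was below the wild-type library of its number in all 4 pairs for 12 of 28 genes, where 14.8% of all genes were, and above it in all 4 pairs for 4 of 28 genes, where 15.8% were. The groups themselves overlapped for every gene except Cxcr6, which lay lower in all knockout libraries (as did 2.49% of all genes), and Cxcl13, which lay higher (2.47%); 4.96% of all genes did so in either direction. DESeq2 with the block called 4 of the 28 higher and 10 lower, where 9.29% of all genes were called (3.86% higher and 5.43% lower).

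Of the 12 calls, 6 were lost when some pair was left out. Leaving out any one pair of same-numbered libraries kept the calls of 6 genes, namely Cxcr6, Cxcr2, Ccr2, Ccl3, Ccl4 and Cxcl13. Ccl22 and Cxcl10 lost theirs without number 1 (adjusted p = 0.0667 for Ccl22 and 0.123 for Cxcl10), and Ccl5 lost its call without number 3 (adjusted p = 0.107). Cxcr1, Cxcr4 and Ccr3 lost theirs without number 1, 3 or 4, with adjusted p-values from 0.0626 to 0.176.

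**Figure D1:**
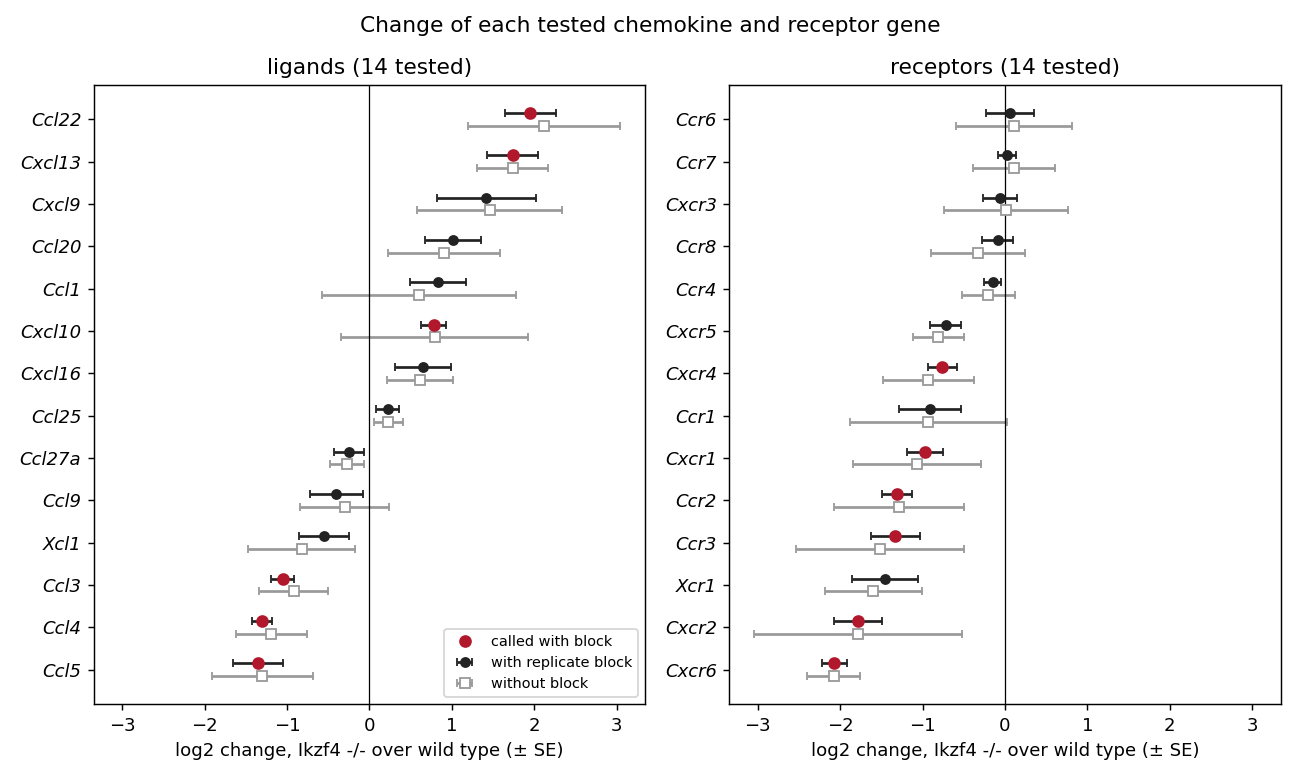
Log2 change (knockout over wild type, with its standard error) of the 28 tested chemokine and chemokine receptor genes in the fit with the library number as a block, ligands left and receptors right, with the fit without the block as open squares under each point. Red points passed an adjusted p of 0.05 with the block (12 genes) and black points did not (16 genes); Cxcr6 is lowest at -2.07 and Ccl22 highest at 1.95.

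Promoter sequences of 5 of the changed genes are shown because these genes carry the result in both directions: the receptor with the largest change (Cxcr6), a further receptor (Cxcr2), the most abundant ligand (Ccl3) and a pair of ligands that were higher (Cxcl13 and Cxcl10). Each is the 250 bases before the RefSeq gene start (build GRCm38.p6), 5′ to 3′ on the gene's strand. Capitals mark GGGAA or its reverse complement TTCCC, the core that Ikaros family proteins are known to bind and that is also part of many NF-kB sites.
Cxcr6 (chr9:123806227-123806476, plus strand): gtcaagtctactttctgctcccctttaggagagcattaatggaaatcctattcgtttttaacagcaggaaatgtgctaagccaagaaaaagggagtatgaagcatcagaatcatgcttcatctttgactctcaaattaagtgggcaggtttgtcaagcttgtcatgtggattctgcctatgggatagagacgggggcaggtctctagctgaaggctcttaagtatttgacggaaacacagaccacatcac
Cxcr2 (chr1:74153744-74153993, plus strand): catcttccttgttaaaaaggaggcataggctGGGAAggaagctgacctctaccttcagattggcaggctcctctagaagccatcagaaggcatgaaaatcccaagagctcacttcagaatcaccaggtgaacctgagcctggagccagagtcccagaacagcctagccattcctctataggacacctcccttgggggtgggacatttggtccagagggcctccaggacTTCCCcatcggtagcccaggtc
Ccl3 (chr11:83649379-83649628, minus strand): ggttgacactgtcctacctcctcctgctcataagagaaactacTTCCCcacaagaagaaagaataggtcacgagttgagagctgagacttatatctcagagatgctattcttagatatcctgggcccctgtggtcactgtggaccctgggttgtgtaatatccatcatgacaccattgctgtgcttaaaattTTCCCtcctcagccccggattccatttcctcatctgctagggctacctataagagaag
Cxcl13 (chr5:95956689-95956938, plus strand): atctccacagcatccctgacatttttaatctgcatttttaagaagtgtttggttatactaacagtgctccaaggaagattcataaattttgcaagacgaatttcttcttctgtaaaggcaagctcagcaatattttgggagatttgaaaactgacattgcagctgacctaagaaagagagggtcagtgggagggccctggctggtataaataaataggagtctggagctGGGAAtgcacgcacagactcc
Cxcl10 (chr5:92348890-92349139, minus strand): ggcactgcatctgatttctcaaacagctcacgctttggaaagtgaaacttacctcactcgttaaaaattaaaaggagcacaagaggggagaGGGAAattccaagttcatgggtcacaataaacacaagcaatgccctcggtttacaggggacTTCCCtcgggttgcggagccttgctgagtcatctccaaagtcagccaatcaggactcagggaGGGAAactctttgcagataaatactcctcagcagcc
These windows hold 0 matches in Cxcr6, 2 in Cxcr2, 2 in Ccl3, 1 in Cxcl13 and 3 in Cxcl10.

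RefSeq promoters were found for 33 of the 41 genes and for 23 of the 28 tested. GGGAA occurred, on either strand, in 5 of 7 promoters of genes that fell, 3 of 3 of genes that rose and 6 of 13 of tested genes that did not pass. Among all 27025 promoters of the same length, 55.9% held it. A STAT motif (TTCNNNGAA) occurred in 0 of 7, 0 of 3 and 1 of 13 of these promoters and in 7.18% of all; a T-box motif (AGGTGT) in 2 of 7, 0 of 3 and 1 of 13 and in 3241 of the 27025; an AP-1 motif (TGANTCA) in 1 of 7, 1 of 3 and 2 of 13 and in 6.87% of all. All motifs were searched on both strands, and matches of different motifs can overlap. A match only describes these letters in this window.

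The expression level per transcript length put a few genes far above the rest. In RPKM (CPM per kilobase of exon), the order in knockout libraries was Ccl3 (460 ± 263), Ccr7 (289 ± 171), Ccl4 (277 ± 163) and, well below, Ccl5 (26.8 ± 19.4), Xcl1 (16.2 ± 7.61), Ccr4 (13.1 ± 3.74) and Ccr8 (11.2 ± 5.33; SD, n = 4). In wild-type libraries it was Ccl3 (873 ± 325), Ccl4 (631 ± 250), Ccr7 (268 ± 126), Ccl5 (65.9 ± 35.2), Xcl1 (28.6 ± 23.4), Ccr4 (14.95 ± 5.63) and Ccr8 (14.1 ± 13.3; SD, n = 4). Neighbouring genes within each list overlap within their SDs, except at the step from the 3 leading genes down to Ccl5. Ccl3 and Ccl4 together made up 67.7% to 93.3% of all ligand counts (not divided by length) in knockout libraries and 83.0% to 93.1% in wild-type libraries. Ccr7 made up 61.9% to 93.6% of the counts of the 19 receptors in knockout libraries and 56.0% to 88.3% in wild-type libraries.

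Cxcr6, the receptor for the membrane-bound chemokine CXCL16 and a marker of effector and tissue-resident T cells, changed most among the receptors. It was at 2.68, 3.05, 4.45 and 1.96 CPM in knockout libraries 1 to 4, against 15.3, 10.5, 17.6 and 8.01 CPM in wild-type libraries 1 to 4. Every knockout value was below every wild-type value. The log2 change was -2.07 ± 0.15 (SE) with the block, adjusted p = 0.000271, and -2.08 ± 0.32 without it, adjusted p = 0.0632. Its ligand Cxcl16 averaged 1.22 ± 0.37 CPM in knockout libraries and 0.79 ± 0.42 CPM in wild-type libraries (SD, n = 4 each), a log2 change of 0.65 that did not pass (adjusted p = 0.315). Transcripts of Cxcl16 share 552 exon bases with Zmynd15 on the other strand, and the strand setting of the counting is not given in the sources used here.

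Ccr2, a receptor of monocytes and effector T cells that binds CCL2, was at 1.597, 0.41, 5.03 and 2.46 CPM in knockout libraries, against 3.17, 1.24, 10.96 and 7.69 CPM in wild-type libraries. The groups overlapped, and the knockout was lower within every number (log2 change -1.31 ± 0.18, adjusted p = 0.00461 with the block and 0.753 without).

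Ccr3, the eotaxin receptor best known from eosinophils and Th2 cells, was at 0.54, 0.13, 2.22 and 1.398 CPM in knockout libraries, against 1.07, 0.23, 4.02 and 6.86 CPM in wild-type libraries. Knockout values were lower within each number, and the groups overlapped. The log2 change with the block was -1.33 ± 0.30 (adjusted p = 0.0375, and 0.777 without the block). The remaining CC receptors did not pass in either fit. Ccr1, a receptor for CCL3 and CCL5, had a log2 change of -0.91 ± 0.38 with the block (adjusted p = 0.213).

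Among the CXC receptors, Cxcr2 and Cxcr1, which bind neutrophil-attracting chemokines, and Cxcr4, the CXCL12 receptor that retains lymphocytes in bone marrow, were lower. Cxcr2 was at 0.40, 0.037, 3.12 and 1.02 CPM in knockout libraries, against 1.07, 0.11, 7.69 and 6.50 CPM in wild-type libraries, and so varied far more between numbers than between genotypes. Its log2 change was -1.78 ± 0.29 with the block (adjusted p = 0.00992) and -1.78 ± 1.26 without it (adjusted p = 0.804). The granulocyte list of 7 genes summed to 0 to 0.195 CPM in knockout libraries and 0 to 0.589 CPM in wild-type libraries, with S100a8 at 0 counts in every library and S100a9 at 1 count in a single one.

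Cxcr1 was at 2.17, 0.39, 3.90 and 2.19 CPM in knockout libraries, against 3.22, 0.62, 7.17 and 7.02 CPM in wild-type libraries (log2 change -0.97 ± 0.22, adjusted p = 0.0378 with the block and 0.814 without). Cxcr4 was at 8.35, 4.14, 13.7 and 11.7 CPM in knockout libraries, against 14.5, 4.23, 24.6 and 28.5 CPM in wild-type libraries (log2 change -0.76 ± 0.18, adjusted p = 0.041 with the block and 0.748 without). For both genes the groups overlapped, and at number 2 the Cxcr4 values of the genotypes were nearly equal. Cxcr5, the receptor that guides cells into B cell follicles, averaged 5.39 ± 0.93 CPM in knockout libraries and 9.45 ± 3.997 CPM in wild-type libraries (SD, n = 4 each) without passing (log2 change -0.72, adjusted p = 0.061 with the block).

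The other Th1 and homing receptors gave no call in either fit. Cxcr3, the receptor for CXCL9, CXCL10 and CXCL11, was at 3.31, 4.29, 25.2 and 12.9 CPM in knockout libraries, against 5.94, 2.85, 21.0 and 15.5 CPM in wild-type libraries. The knockout was higher in 2 of the 4 numbers and lower in 2, and the log2 change was -0.06 ± 0.21 with the block (adjusted p = 0.908) and 0.01 ± 0.75 without it. Ccr7 was at 892, 831, 222 and 344 CPM in knockout libraries, against 671, 784, 222 and 442 CPM in wild-type libraries, a log2 change of 0.03 ± 0.11 (adjusted p = 0.898 with the block). Ccr4, a receptor for CCL17 and CCL22 on Th2, regulatory and skin-homing T cells, was at 25.3, 37.5, 48.1 and 50.7 CPM in knockout libraries, against 22.7, 46.3, 51.8 and 64.3 CPM in wild-type libraries (log2 change -0.15 ± 0.10, adjusted p = 0.424 with the block). Numbers 3 and 4 had high Cxcr3 and low Ccr7 in both genotypes.

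**Figure D2:**
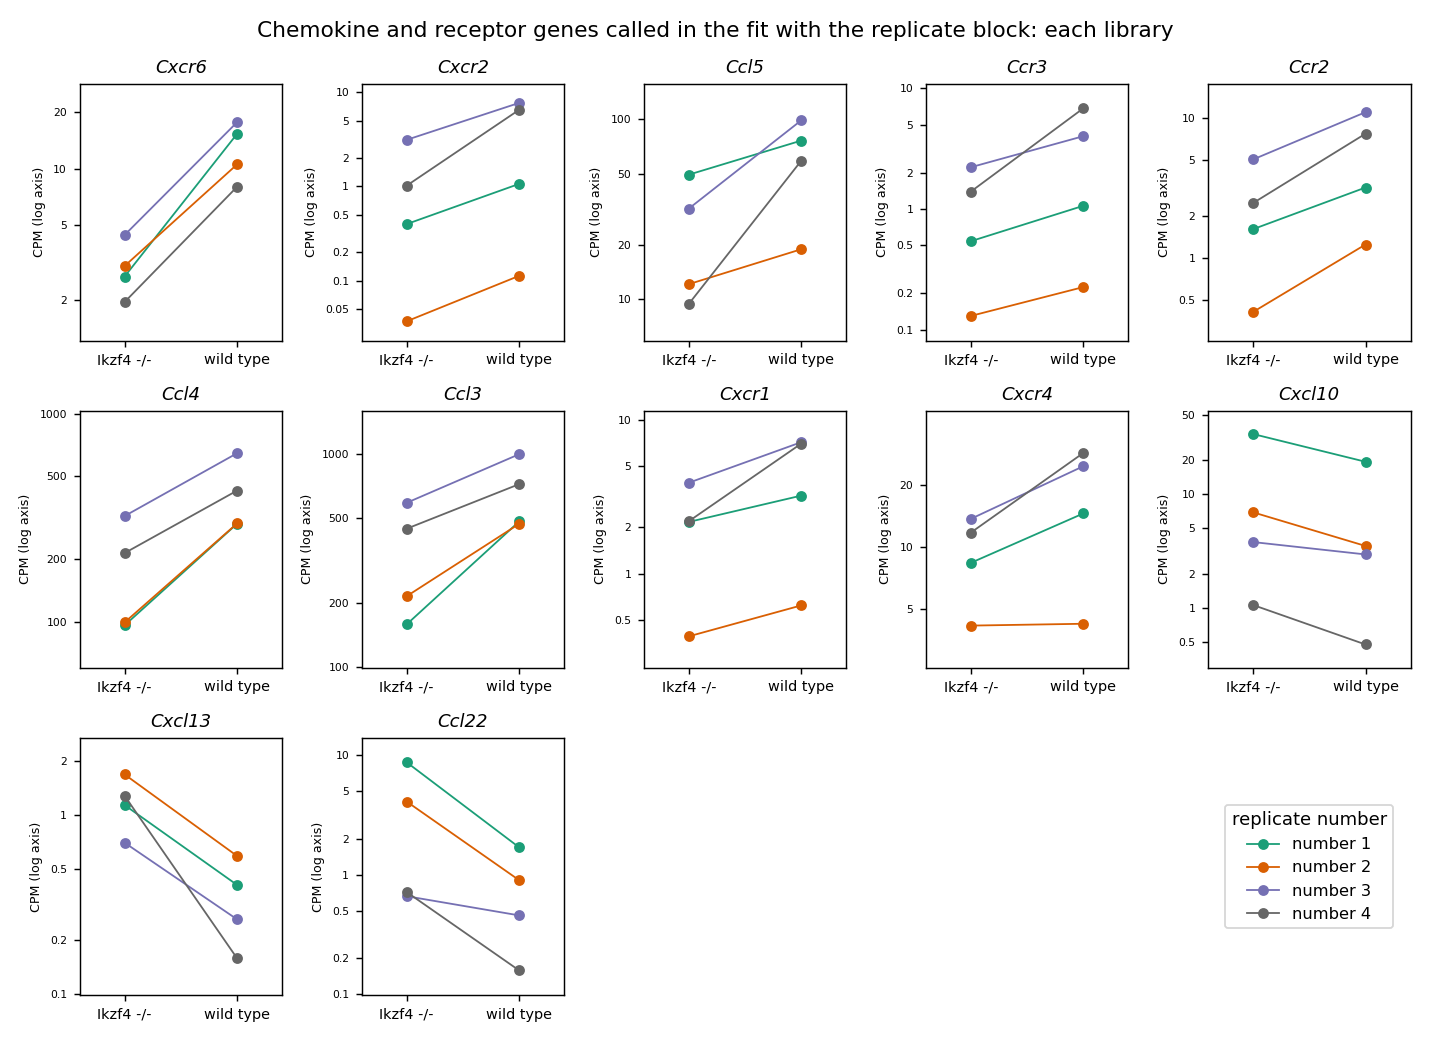
CPM (log axis, a separate range per panel) of the 12 genes called in the blocked fit, Ikzf4-/- libraries left and wild-type libraries right, with lines joining libraries of the same number (colours, 1 to 4). Lines climb to the wild type in all 4 numbers for the 9 genes that fell and descend for Cxcl10, Cxcl13 and Ccl22, while the values of different numbers are often far apart, as for Cxcr2 (0.037 to 3.12 CPM in the knockout).

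The inflammatory CC ligands Ccl3, Ccl4 and Ccl5, which attract T cells and monocytes, were lower. Ccl3 was at 158, 215, 591 and 446 CPM in knockout libraries, against 483, 470, 999.6 and 723 CPM in wild-type libraries. Ccl4 was at 96.0, 99.1, 322 and 214 CPM in knockout libraries, against 296, 297, 646 and 427 CPM in wild-type libraries. Both overlapped between groups because number 3 was high in each genotype, and both were lower in the knockout within each number.

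The log2 change of Ccl3 was -1.05 ± 0.14 with the block (adjusted p = 0.00403) and -0.92 ± 0.42 without it (adjusted p = 0.632). That of Ccl4 was -1.30 ± 0.12 with the block (adjusted p = 0.000763) and -1.19 ± 0.43 without it (adjusted p = 0.513). Ccl4 counted for 0.462 to 0.606 of the Ccl3 CPM in knockout libraries and for 0.591 to 0.646 in wild-type libraries. Ccl5 was at 49.3, 12.1, 31.9 and 9.41 CPM in knockout libraries, against 76.3, 19.0, 98.9 and 59.0 CPM in wild-type libraries. Its log2 change was -1.35 ± 0.30 with the block (adjusted p = 0.0323, and 0.641 without), and the knockout to wild-type ratio ran from 0.16 at number 4 to 0.646 at number 1. All ligands together summed to 376, 390, 994 and 707 CPM in knockout libraries, against 938, 847, 1787 and 1234 CPM in wild-type libraries.

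Xcl1, the lymphotactin made by activated CD8 T cells and NK cells that draws in XCR1+ dendritic cells, was at 9.44, 13.1, 3.51 and 7.86 CPM in knockout libraries, against 24.6, 26.5, 3.93 and 4.88 CPM in wild-type libraries. It was lower in the knockout at numbers 1, 2 and 3 and higher at number 4, and did not pass (log2 change -0.55 ± 0.30, adjusted p = 0.331 with the block). Its receptor gene Xcr1 averaged 0.25 ± 0.12 CPM in knockout libraries and 0.72 ± 0.52 CPM in wild-type libraries (SD, n = 4 each), with an adjusted p of 0.0712 in the blocked fit. Transcripts of Xcl1 share 98 exon bases with an opposite-strand gene.

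Most tested markers of gamma-delta T cells and NK cells were also lower in the knockout, whereas no CD8 or B cell marker passed. The gamma-delta T cell list of 9 genes holds receptor genes and Sox13. It summed to 22.0, 21.6, 12.8 and 7.74 CPM in knockout libraries, against 76.0, 56.5, 47.2 and 22.1 CPM in wild-type libraries. Of its 6 tested genes, 5 were lower in the blocked fit, where 4.01% of all genes were. These were all receptor genes, including the constant gene Trdc, and Sox13 did not pass (log2 change 0.23, adjusted p = 0.712 with the block). The NK list of 9 genes summed to 13.2 to 30.6 CPM in knockout libraries and 28.3 to 60.5 CPM in wild-type libraries, and 3 of its 4 tested genes fell against the same 4.01%. The remaining tested gene, Eomes, had a log2 change of 0.24 that did not pass (adjusted p = 0.714 with the block). The defining NK receptor Ncr1 was at 0 in every library. Ifng, made by Th1, NK and gamma-delta cells alike, was at 600 ± 211 CPM in knockout libraries and 1332 ± 375 CPM in wild-type libraries (SD, n = 4 each; log2 change -1.17, adjusted p = 0.000232 with the block). The Th1 list of 8 genes held no other call in the blocked fit. The CD8 genes Cd8a and Cd8b1 summed to 3.32 to 16.2 CPM in knockout libraries and 4.44 to 12.7 CPM in wild-type libraries, and neither passed. The B cell list of 7 genes summed to 4.80 to 23.0 CPM in knockout libraries and 4.46 to 15.7 CPM in wild-type libraries, and 0 of its 4 tested genes passed with the block. The part of these cells in the chemokine values was not tested. In bulk RNA, fewer cells of a type and less RNA per cell cannot be told apart.

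In all, 3 ligands rose in the blocked fit. Ccl22, a ligand of CCR4 made by dendritic cells and activated T cells, was at 8.75, 4.11, 0.66 and 0.72 CPM in knockout libraries, against 1.70, 0.90, 0.46 and 0.16 CPM in wild-type libraries. Numbers 1 and 2 were high in both genotypes and the groups overlapped. The log2 change was 1.95 ± 0.31 with the block (adjusted p = 0.0082, and 0.606 without). Cxcl13, which attracts B cells and follicular helper T cells through CXCR5, was at 1.14, 1.69, 0.70 and 1.28 CPM in knockout libraries, against 0.41, 0.59, 0.26 and 0.16 CPM in wild-type libraries. Every knockout value exceeded every wild-type value, with a log2 change of 1.74 ± 0.31 with the block (adjusted p = 0.015) and 1.74 ± 0.43 without it (adjusted p = 0.301).

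Cxcl10, an interferon-induced ligand of CXCR3, was at 33.7, 6.91, 3.78 and 1.06 CPM in knockout libraries, against 19.2, 3.50, 2.95 and 0.48 CPM in wild-type libraries. It was higher in the knockout within each number, and number 1 was the highest in both genotypes (log2 change 0.78 ± 0.15, adjusted p = 0.0196 with the block and 0.938 without). Cxcl10 shares 133 exon bases with Art3 on the other strand. The related CXCR3 ligand Cxcl9 averaged 0.81 ± 0.70 CPM in knockout libraries and 0.29 ± 0.23 CPM in wild-type libraries (SD, n = 4 each), a log2 change of 1.42 ± 0.60 that did not pass (adjusted p = 0.21 with the block). The macrophage and dendritic cell list of 13 genes summed to 81.4 to 141 CPM in knockout libraries and 77.3 to 120 CPM in wild-type libraries, where the defining genes Lyz2 and Csf1r had at most 6 counts in any library. Of its 4 tested genes, 1 was called in the blocked fit, namely Cd74, the invariant chain of MHC class II, which rose. It was at 107, 134.5, 25.3 and 40.8 CPM in knockout libraries, against 72.0, 71.3, 19.2 and 19.3 CPM in wild-type libraries, and so was high at numbers 1 and 2 in both genotypes, as Ccl22 was (log2 change 0.74 ± 0.12, adjusted p = 0.00781 with the block and 0.856 without). The other tested genes of that list did not pass with the block: H2-Ab1 (log2 change -0.51) and H2-Aa (-0.45), also of MHC class II, and Adgre1 (0.73). H2-Ab1 was at 23.6, 3.98, 58.55 and 39.5 CPM in knockout libraries, against 28.5, 3.24, 81.0 and 99.8 CPM in wild-type libraries. Unlike Cd74, it was lowest at number 2 in both genotypes. The part of macrophages and dendritic cells in the ligand values was not tested.

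Further genes were tested without a call in either fit. Ccr6, the receptor for CCL20 on Th17 and regulatory cells, averaged 14.3 ± 9.31 CPM in knockout libraries and 13.3 ± 9.61 CPM in wild-type libraries (SD, n = 4 each). Its ligand Ccl20 averaged 6.37 ± 3.94 CPM in knockout libraries and 3.39 ± 3.37 CPM in wild-type libraries, a log2 change of 1.01 ± 0.34 with the block (adjusted p = 0.127). Ccr8, found on regulatory and Th2 cells, averaged 13.1 ± 6.27 CPM in knockout libraries and 16.6 ± 15.6 CPM in wild-type libraries, and its ligand Ccl1 3.21 ± 4.39 CPM in knockout libraries and 2.14 ± 3.38 CPM in wild-type libraries (adjusted p = 0.838 for Ccr8 and 0.203 for Ccl1 with the block). In these genes the SD was close to or above the difference between groups. Ccl25, the CCR9 ligand known from thymus and gut, averaged 5.29 ± 0.81 CPM in knockout libraries and 4.53 ± 0.52 CPM in wild-type libraries (adjusted p = 0.413 with the block) and shares 204 exon bases with the opposite-strand Elavl1.

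Of 33 textbook pairs of a ligand and a receptor, 12 had both partners tested, and in 1 of these, Ccr3 with Ccl5, both changed, each downward. For 11 pairs the receptor was tested but its ligand had fewer than 10 counts in all libraries together. These include the CCR7 ligands Ccl19 and Ccl21a, with 0 counts each, and the CXCR4 ligand Cxcl12, with 1 count. In the pairs of Ccr4 with Ccl22, Cxcr3 with Cxcl10 and Cxcr5 with Cxcl13 the ligand was higher in the knockout while the receptor did not pass.

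Several of the genes that fell are neighbours (GENCODE vM21 positions, build GRCm38). On chromosome 11, Ccl5 (chr11:83525778-83530518), Ccl9, Ccl6, Ccl3 (chr11:83647844-83649355) and Ccl4 (chr11:83662584-83664683) start within 137 kb, and Ccl5, Ccl3 and Ccl4 fell, while Ccl9 did not pass (log2 change -0.40 ± 0.32, adjusted p = 0.511). On chromosome 9, Ccr9, Cxcr6 (chr9:123806475-123811760), Xcr1, Ccr1, Ccr1l1, Ccr3 and Ccr2 (chr9:124101950-124113557) start within 423.5 kb. Cxcr6, Ccr3 and Ccr2 fell, Xcr1 and Ccr1 had log2 changes of -1.46 and -0.91 that did not pass, and Ccr9 and Ccr1l1 were too low to test. On chromosome 1, the neighbours Cxcr2 (chr1:74153989-74161246) and Cxcr1 (chr1:74191785-74194631) also fell. Other neighbours went the other way. On chromosome 5, Cxcl10 rose and Cxcl9 had a log2 change of 1.42 that did not pass. On chromosome 8, Ccl22 rose, and its neighbours Cx3cl1 and Ccl17 were too low to test.

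**Figure D3:**
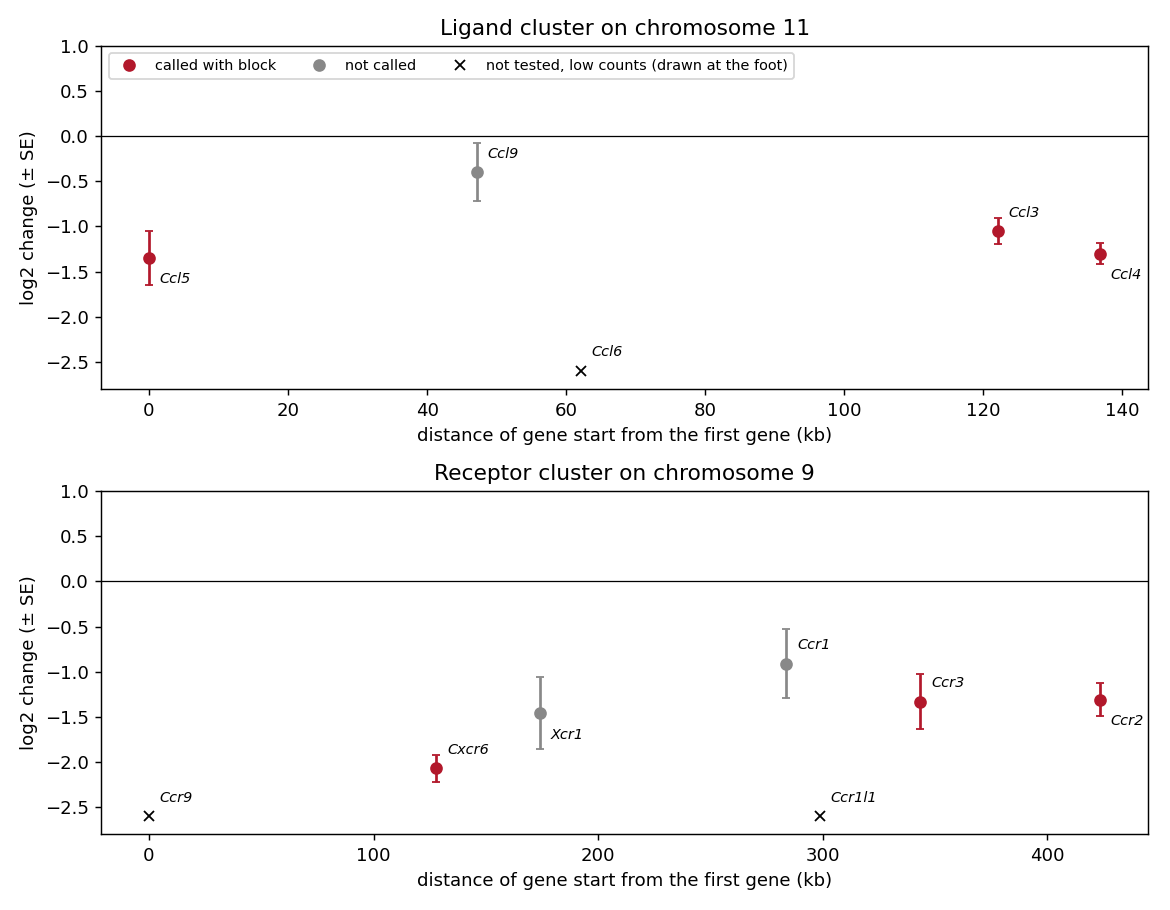
Log2 change (knockout over wild type, ± SE, blocked fit) against the distance of each gene's start from the first gene of its cluster in kilobases, for the ligand cluster on chromosome 11 and the receptor cluster on chromosome 9. All tested genes of both clusters lie below 0, from -0.40 (Ccl9) to -2.07 (Cxcr6); crosses at the foot mark Ccl6, Ccr9 and Ccr1l1, which were not tested.

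Levels also varied between library numbers. The median log2 range of the mean over the 4 numbers was 2.20 in these genes and 0.52 in all genes tested, and the median size of the log2 genotype change was 0.87 in these genes and 0.15 in all genes tested. The range exceeded the genotype change in 26 of 28 genes, the exceptions being Cxcr6 and Cxcl13, and in 90.6% of all genes tested. A range over 4 values tends to exceed a single mean difference, and this count is therefore only a description. Cxcr2 ranged 72.1-fold over the numbers and Cxcl10 34.5-fold, whereas Ccl25 ranged 1.28-fold. Ccl1, Ccr8 and Ccl20 were highest at number 2, the number whose libraries hold Xist. What distinguishes the numbers is not in the labels, and its part in these values was not tested.

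**Figure D4:**
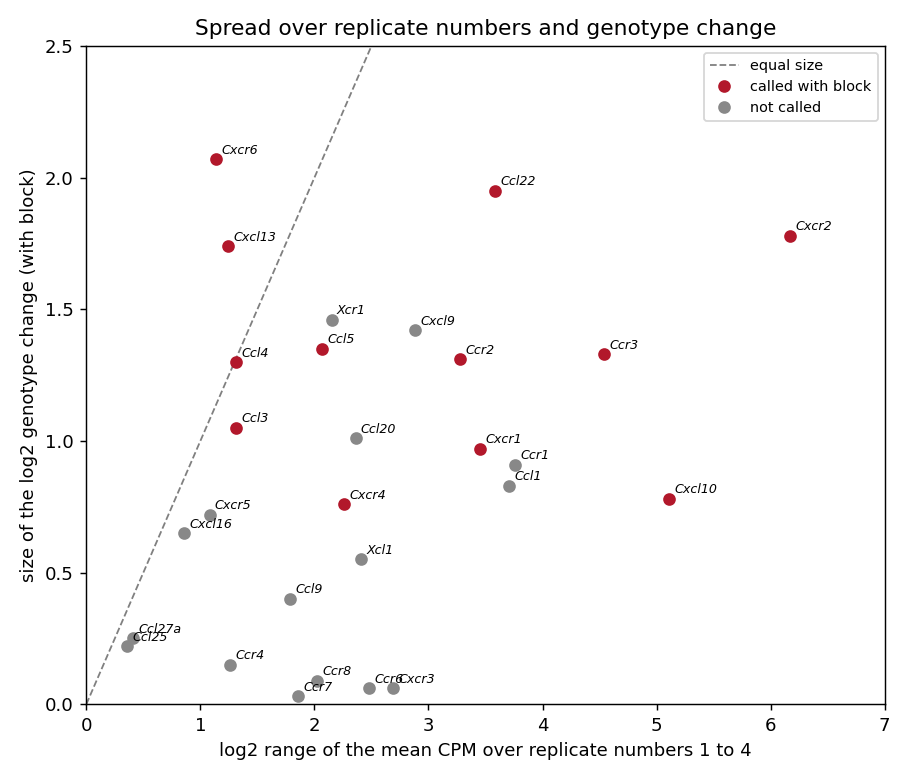
Log2 range of the mean CPM over the 4 library numbers (x axis) against the size of the log2 genotype change in the blocked fit (y axis), 1 point per tested gene, with the line of equality. Of 28 genes, 26 lie below the line, and Cxcr6 and Cxcl13 lie above it.

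Of the 13 genes below the filter, Ccl6 stood out. It encodes a CC chemokine of rodent myeloid cells and had 0, 0, 1 and 1 counts in knockout libraries, against 253, 1, 114 and 2 counts in wild-type libraries. Nearly all of its 370 wild-type counts, 367 of them, came from wild-type libraries 1 and 3, and libraries 2 and 4 held 3. Scaled to library size, the wild type to knockout ratio of summed counts was 190 (exact 95% interval 52.2 to 1573, which covers counting error only). The authors' deposited table gives it a log2 change of 7.17, wild type over knockout, with an adjusted p of 0.0224. The basophil and mast cell genes Mcpt8 and Cpa3 had 9 and 8 counts in all knockout libraries, against 401 and 267 counts in wild-type libraries 1 and 3, with 0 counts in wild-type libraries 2 and 4; Prss34 had 0 counts in knockout libraries and 227 in wild-type libraries 1 and 3. The whole list of 10 mast cell and basophil genes summed to 5.45 to 9.87 CPM in knockout libraries and 7.39 to 29.6 CPM in wild-type libraries. With numbers 1 and 3 left out, all 12 genes called in the blocked fit kept their direction and 9 of them passed, 2 higher and 7 lower (3.26% of all genes passed, 1.32% higher and 1.94% lower). Cxcr1, Cxcr4 and Cxcl10 did not pass. This choice was made after seeing the data, and the fit rests on numbers 2 and 4 alone, so its p-values have little replication behind them. The part of basophils and mast cells in the chemokine values was not tested.

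**Figure D5:**
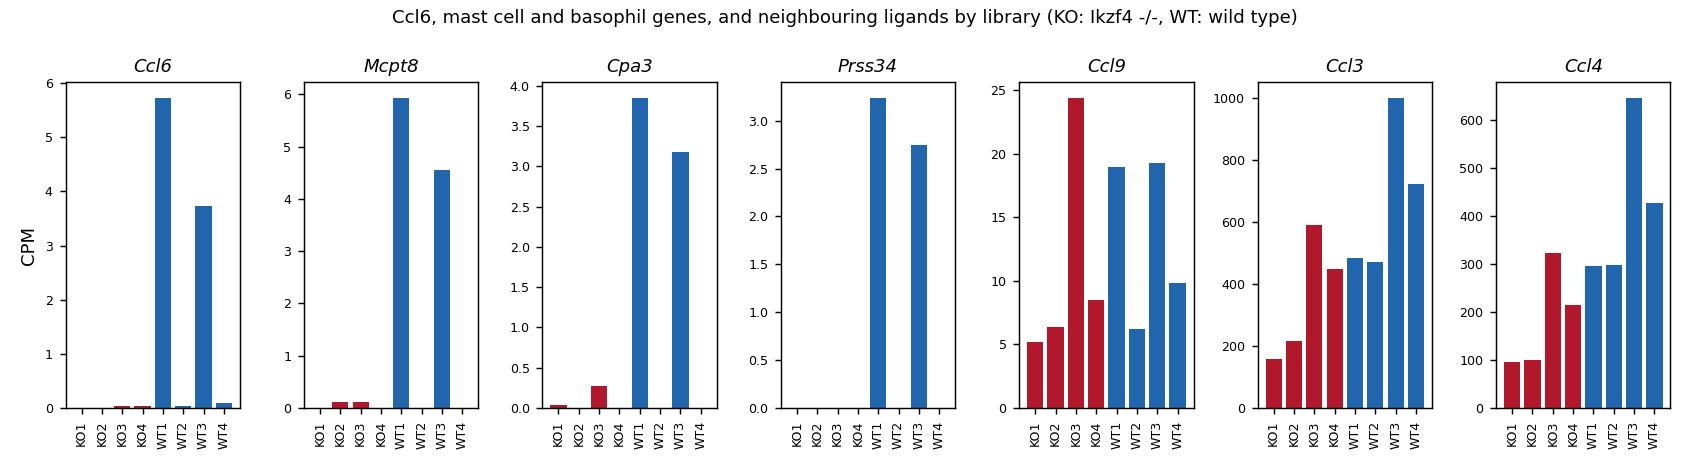
CPM (linear axis from 0, a separate range per panel) of Ccl6, the basophil and mast cell genes Mcpt8, Cpa3 and Prss34, and the neighbouring ligands Ccl9, Ccl3 and Ccl4, 1 bar per library, with knockout libraries (red, KO) left of wild-type libraries (blue, WT). Ccl6 and the basophil and mast cell genes stand out in wild-type libraries 1 and 3, where Ccl6 is at 5.73 and 3.73 CPM, while Ccl9, Ccl3 and Ccl4 are measured in all 8 libraries.

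The other 12 genes below the filter had 18 to 91 counts in all. They comprised Ccl17, Ccl28, Cxcl2, Cxcl3, Cxcl11, Cxcl17, Cx3cl1, Ccr9, Ccr10, Ccr1l1, Cx3cr1 and Ackr4, a scavenging receptor. Cx3cr1, the fractalkine receptor of cytotoxic and monocytic cells, had 6 counts in knockout libraries and 26 in wild-type libraries, and Ccl17, a second CCR4 ligand, had 58 counts in knockout libraries and 28 in wild-type libraries. Cxcl11 is annotated as a polymorphic pseudogene and shares 1582 exon bases with the opposite-strand Gm2673. Among the tested genes, Ccl27a shares 20.2% of its 75-base stretches with near-identical copies, so its value (2.07 ± 0.12 CPM in knockout libraries and 2.49 ± 0.49 CPM in wild-type libraries, SD, n = 4 each) is uncertain.

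Downstream of the receptors, 1 gene of the signalling list rose in both fits. The list holds G protein subunits, effectors, kinases, arrestins and RGS proteins, of which 32 were in the table and 30 were tested. Dock2, the Rac exchange factor that drives lymphocyte migration towards chemokines, was at 335, 428, 278 and 318 CPM in knockout libraries, against 92.3, 93.3, 52.6 and 51.3 CPM in wild-type libraries. Every knockout value lay above every wild-type value, with a log2 change of 2.23 ± 0.24 without the block (adjusted p = 0.00782) and 2.27 ± 0.12 with it (adjusted p = 0.000102). Without wild-type libraries 1 and 3, and with no block, the log2 change of Dock2 was still 2.23 but it no longer passed. An effect of Eos loss on Dock2 and another genetic difference between the mice cannot be told apart with these labels.

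In the blocked fit 3 further genes of the list fell and 26 did not pass, so that 4 of 30 were called (13.3%), where 6.71% of all genes tested were called and 4.01% fell. Pik3r5, the regulatory subunit of phosphoinositide 3-kinase gamma, was at 22.9, 19.6, 25.4 and 18.3 CPM in knockout libraries, against 45.1, 24.5, 58.4 and 49.5 CPM in wild-type libraries (log2 change -0.98 ± 0.16, adjusted p = 0.0102), and its call was lost without number 1. The catalytic subunit gene Pik3cg (log2 change -0.36 ± 0.09, adjusted p = 0.043) and Gng2, a G protein gamma subunit (log2 change -0.38 ± 0.09, adjusted p = 0.0377), were lost without number 1, 3 or 4. Gnai2, the main inhibitory G protein alpha subunit of lymphocytes, averaged 609 ± 64.6 CPM in knockout libraries and 672 ± 36.2 CPM in wild-type libraries (SD, n = 4 each) without passing (adjusted p = 0.37 with the block). Rgs1 and Rgs16, which shorten G protein signalling, and Arrb2, an arrestin that uncouples receptors, had log2 changes of -0.12, 0.23 and -0.19, none of which passed.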

How the data were processed

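Total RNA of 8 CD4+ T cell samples was sequenced, and the authors deposited 1 table of whole-number read counts per gene symbol. Per the submitters' processing notes, the build was GRCm38 and the tools were STAR 2.5.2, DESeq2, and featureCounts from Subread 1.5.2. Not given in the sources used here are its annotation, strand setting and handling of multiply matching reads. Beside the counts are, per the file headers, the authors' DESeq2 log2 fold changes (wild type over knockout) with their standard errors, a test statistic (a score), p-values and a mean normalised signal; these are quoted only where the authors' deposited table is named.

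Counts were tested with edgeR 4.0.16 (quasi-likelihood, TMM factors, filterByExpr) in R 4.3.3, over all 14672 genes that passed the filter, with Benjamini-Hochberg adjustment at 0.05; signs are knockout over wild type. DESeq2 1.42.0, RLE factors, no filter, libraries or pairs left out and the block were alternatives. CPM use TMM library sizes; RPKM divide by the union exon length of GENCODE vM21, which held 48652 of the 49040 symbols. Depth limits the low genes, and library totals ran from 25227017 to 53149322 counts.

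The library numbers pair the libraries: deviations from the group means of same-numbered libraries correlated at 0.62, 0.726, 0.732 and 0.612 across genes, which rests on these values and not on a label. No pair of libraries in a group was alike within sampling noise. 1 gene that the symbols would take is not reported here. The members, the lists, and the use of both fits were chosen with earlier results of these data known. Every library's values are given for the chemokine and receptor genes called in either fit and for a set of textbook Th1 and naive T cell genes.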

Additional observations from a re-analysis of the deposited data

Results flagged for a closer look

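In 7 of 82 sets of 4 libraries examined (each gene in each genotype), 1 library stood further from the other 3 than a Dixon test allows at its 95% level. Chance does this in about 1 of 20 sets of independent, normally distributed values. The test was run on CPM without a log scale, and same-numbered libraries resembled each other across genotypes. The 7 flags therefore cannot be set against that rate and only mark values to look at. Ccl1 was at 9.79 CPM in knockout library 2 (0.741 to 1.25 CPM in the other knockout libraries) and at 7.19 CPM in wild-type library 2 (0.238 to 0.793 CPM in the other wild-type libraries). Ccr8 was at 39.9 CPM in wild-type library 2, with 7.20 to 10.7 CPM in the others, and Ccl20 at 8.43 CPM in wild-type library 2, with 1.31 to 1.95 CPM in the others. Cxcl11 was at 1.08 CPM in knockout library 1, with 0.113 to 0.204 CPM in the other knockout libraries, and at 0.612 CPM in wild-type library 1, with 0.0396 to 0.0982 CPM in the others. Cxcl10 was at 19.2 CPM in wild-type library 1, with 0.476 to 3.50 CPM in the others. The causes were not tested.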

How the results depend on the processing

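Without the block, 0 chemokine or receptor genes were called in either direction, also under RLE factors, with any 1 library left out and with wild-type libraries 1 and 3 left out. No filter gave 0 higher and 1 lower (Cxcr6), and DESeq2 gave 1 higher and 2 lower. The replicate block gave 3 higher and 9 lower, and DESeq2 with the replicate block 4 higher and 11 lower. With 1 pair left out, the blocked counts ran from 1 to 3 higher and from 5 to 10 lower. With numbers 1 and 3 left out, chosen after seeing the data, they were 2 higher and 7 lower. The signalling list gave 1 call without the block, 1 to 2 with 1 library left out, 4 with the block, 1 to 7 with the block and 1 pair left out, 2 with DESeq2, 5 with DESeq2 and the block, and 0 without wild-type libraries 1 and 3. The share of all genes called was not counted for the fits with 1 library or 1 pair left out. The counts from those fits, for the chemokine and receptor genes and for this list, are therefore only a description. Groups did not overlap for 2 genes, where 4.96% of all genes tested did not. With 1 library left out this held for 2 to 6 genes (6 without wild-type library 2, 4 without knockout library 3). Groups with fewer libraries separate more easily, and the share of all genes was not counted for these settings. The rise is therefore not a result about these genes.

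Direction turned for 8 genes, of which Cxcl10 alone was called with the block. With 1 library left out, log2 changes ran from -0.73 to 0.50 for Cxcr3, -0.74 to 2.29 for Cxcl10 (lowest without knockout library 1), -0.42 to 0.00 for Ccr4, -0.72 to 0.58 for Ccr8, -1.09 to 2.79 for Ccl1, -0.19 to 0.37 for Ccr7 and -0.25 to 0.54 for Ccr6. Cxcr3 (0.01 without the block) was -0.06 with the block in both tools and -0.22 or -0.18 with the block and without number 2 or 3. Ccr8 was 0.20 with the block and without number 2. Ccl1 was -0.20 without wild-type libraries 1 and 3. Ccl9 was 0.06 with the block and without number 1, and 0.46 without wild-type libraries 1 and 3. Ccr7 was -0.09 with the block and without number 1, -0.10 without wild-type libraries 1 and 3 and -0.14 with the block on numbers 2 and 4. Ccr6 was -0.31 or -0.02 with the block and without number 3 or 4, and -0.59 without wild-type libraries 1 and 3. Causes were not tested. Low counts limit Cxcr2, Ccr1, Ccr3, Xcr1, Cxcl9 and Cxcl13, each of which has libraries with under 10 counts. Ccl22 and Ccl1 are limited in wild-type library 4, with 4 and 6 counts.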
